A study of Mus musculus with 3 samples.

Results

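The genes described here encode enzymes that break down the branched-chain amino acids leucine, isoleucine and valine. The set consists of Bcat2, Bckdha, Bckdhb, Dbt, Ivd, Mccc1, Mccc2, Hibch, Pccb and Acadsb, and was read from every probe set whose annotation carries exactly 1 of these symbols. All 10 genes were on the array, among 18194 genes with a symbol of their own, and they had 15 probe sets. On at least 1 array, 12 of these probe sets had a signal of 100 or more, which covered 9 of the 10 genes, all but Bcat2. The cells were iBATs, brown preadipocytes from interscapular fat of C57BL/6 mice at postnatal day 3, immortalized with SV40 large T antigen and differentiated with insulin and indomethacin. On day 8 of differentiation their total RNA was hybridized to Affymetrix mouse arrays after 1 h or 2 h of the β-adrenergic agonist isoproterenol (ISO, 1 μM) or at 0 h, without ISO. There was 1 array per time point, all from this 1 immortalized line, so no replicate error could be estimated and no p-value is given. A log2 ratio of 0.8 in either direction, used here to call a gene, is a size and not a test.

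In mitochondria BCAT2 moves the amino group of the 3 branched-chain amino acids onto α-ketoglutarate. The branched-chain α-keto acid dehydrogenase complex then removes carbon dioxide, a step that cannot be reversed and is held in check by a kinase. Separate branches for leucine, valine and isoleucine follow and end in acetyl-CoA, acetoacetate and propionyl-CoA. Brown fat is known to take up these amino acids and to oxidize them during thermogenesis.

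The signals are MAS5 values, a linear brightness per probe set that the authors scaled to a common trimmed mean. Levels of different genes cannot be set against each other. The arrays had median signals of 13.6, 12.7 and 13.4 at 0, 1 and 2 h, and their 3′ to 5′ ratio of Actb was between 1.60 and 1.61. All 6 adipocyte markers read were at 100 or more, as were 4 of 5 preadipocyte and fibroblast markers, whose summed signal was 5133.4, 5551.4 and 5019 at 0, 1 and 2 h. None of 5 macrophage and leukocyte, 4 endothelial and 4 muscle markers reached 100, the highest being 93.2. Ucp1, the uncoupling protein gene of brown fat, was at 1485.7, 3673.2 and 4166.1, log2 ratios of 1.31 and 1.49. In bulk RNA, fewer cells of a type and less RNA per cell cannot be told apart.

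None of the 9 genes read changed by a log2 ratio of 0.8 at 1 h or at 2 h. Over all 6896 genes read, that size was reached upwards by 1.58% and downwards by 0.218% at 1 h, and by 2.73% and 0.812% at 2 h. The members leaned downwards by small amounts. All 9 were below 0 h at 1 h. Their log2 ratios had a median of -0.16 and a range of -0.35 to -0.01. Over all genes 55.6% were below 0 h at 1 h, with a median of -0.02. At 2 h 7 of the 9 were below 0 h, against 61.4% of all genes, with a median of -0.16 for the members and -0.07 for all genes. The count of 9 at 1 h depends on the scaling. With the arrays set to the same median signal, which moves the median of all genes at 1 h by 0.10, 6 of 9 members were below 0 h at 1 h, and the members' median was -0.06 where that of all genes was 0.08. Under quantile normalization, the other scaling tried, 9 of 9 were below 0 h at 1 h, with a median of -0.15 against -0.03.

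A smaller size, a log2 ratio of 0.3, was passed downwards by Mccc2 at 1 h and by Dbt and Ivd at 2 h, and upwards by no member at either time. Over all genes 7.44% were lower and 6.06% higher by that size at 1 h, and 16.3% were lower and 10.1% higher at 2 h. Mccc2 at 1 h was short of 0.3 with the arrays at the same median signal (-0.25) and on its dimmer probe set at 100 or more (-0.28). Ivd at 2 h was short of it on its other probe set (-0.14). The noise of single arrays was described by the robust spread of log2 ratios among genes of like signal, which also contains real change. It was 0.13 to 0.16 in the signal classes of the members at 1 h and 0.18 to 0.27 at 2 h. At 1 h 5 members were lower by more than this spread, namely Mccc2, Pccb, Dbt, Acadsb and Hibch, against 19.8% of all genes. With the arrays at the same median signal these were 2, Mccc2 and, at the edge of the spread, Dbt, against 8.46% of all genes. At 2 h they were 4, Ivd, Dbt, Mccc2 and Mccc1, against 23.4%, and 2, Dbt and Mccc2, when each gene was read from its dimmest probe set at 100 or more.

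**Figure D1:**
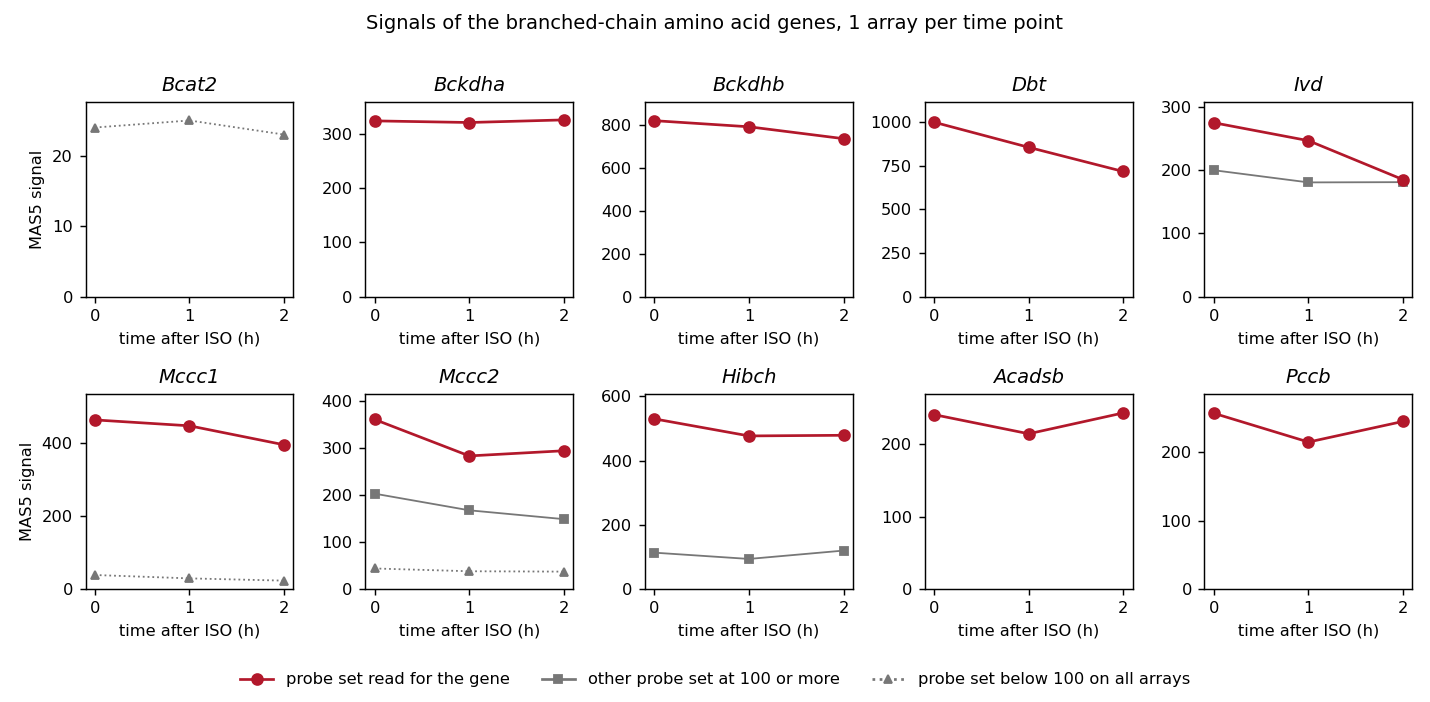
MAS5 signal (vertical axes, each from 0 and on its own scale) against time after ISO in h for the 10 genes; each point is 1 array, without error bars. Red lines are the probe set read for each gene and grey lines its other probe sets. Dbt is at 999.1, 855.3 and 716.8, whereas Bckdha is at 324.5, 321.5 and 326.3.

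The sequences around the transcription starts of 4 members are shown because these genes followed different courses. On the probe sets read, Ivd and Mccc2 had the lowest ratios at 2 h and at 1 h, Acadsb was lower at 1 h only, and Bckdha hardly moved. Each runs from 250 bases before to 50 bases after the start, from RefSeq on GRCm38.p6. Ivd lies at chr2:118861744-118862043, plus strand, Mccc2 at chr13:100015590-100015889, minus strand, Acadsb at chr7:131410351-131410650, plus strand, and Bckdha at chr7:25658712-25659011, minus strand. Capitals mark matches, on either strand, to the cyclic AMP response element (CRE) TGACGTCA, its half-site TGACG, the ERR half-site AAGGTCA, the GC box GGGCGG, the NRF1 element (GCGC, any 2 bases, GCGC) and the E box CACGTG.
Ivd: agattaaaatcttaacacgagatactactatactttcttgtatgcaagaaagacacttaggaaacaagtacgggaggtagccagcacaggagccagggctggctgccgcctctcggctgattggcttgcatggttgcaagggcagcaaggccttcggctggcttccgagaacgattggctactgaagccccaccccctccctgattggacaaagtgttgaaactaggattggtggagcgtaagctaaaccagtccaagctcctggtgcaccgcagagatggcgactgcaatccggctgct
Mccc2: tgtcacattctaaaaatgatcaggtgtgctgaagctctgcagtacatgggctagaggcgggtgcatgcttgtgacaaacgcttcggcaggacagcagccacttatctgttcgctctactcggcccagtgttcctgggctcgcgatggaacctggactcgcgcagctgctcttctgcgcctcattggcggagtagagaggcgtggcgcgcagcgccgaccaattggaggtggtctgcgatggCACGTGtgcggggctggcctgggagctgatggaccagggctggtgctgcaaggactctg
Acadsb: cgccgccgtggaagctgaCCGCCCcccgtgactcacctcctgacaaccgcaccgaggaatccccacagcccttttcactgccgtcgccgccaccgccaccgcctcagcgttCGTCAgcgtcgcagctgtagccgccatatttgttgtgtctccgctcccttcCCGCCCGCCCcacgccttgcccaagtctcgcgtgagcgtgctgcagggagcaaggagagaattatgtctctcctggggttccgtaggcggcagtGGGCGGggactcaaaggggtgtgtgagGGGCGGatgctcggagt
Bckdha: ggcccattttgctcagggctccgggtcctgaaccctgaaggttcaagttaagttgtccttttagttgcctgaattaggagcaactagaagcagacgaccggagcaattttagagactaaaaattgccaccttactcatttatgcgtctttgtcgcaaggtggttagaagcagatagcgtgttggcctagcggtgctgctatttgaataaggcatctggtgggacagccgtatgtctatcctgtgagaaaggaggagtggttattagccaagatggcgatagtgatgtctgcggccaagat

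Entries in that table were found for 9 members in 11 windows, 2 each for Bcat2 and Bckdhb. Dbt was not matched. No member window held the full CRE, which 1.79% of all 32851 windows hold, nor the ERR half-site, which 4.72% hold. The CRE half-site, contained in the full CRE, was found in Acadsb alone, starting 139 bases before the start of transcription on the minus strand, and in 20.8% of all windows. GC boxes were found in 4 member windows, those of Acadsb, Hibch, Mccc1 and the upstream start of Bckdhb, and in 35.7% of all windows. The E box of Mccc2 starts 9 bases before the start (7.15% of all windows hold one), and the NRF1 element of Pccb 69 bases before it (6.23%). Ivd and Bckdha held none of these letters in their windows. On the probe sets read they had the lowest and the flattest ratio at 2 h. Both windows of Bcat2 and that of the downstream start of Bckdhb held none either. A relation between these letters and the ratios was not tested. The windows of Ivd and Bckdha had a GC content of 53.0% and 48.0%, and the median over all windows was 52.7%.

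Bcat2, the mitochondrial transaminase that opens the pathway, was below the signal minimum on every array. Its single probe set, 1425764_a_at, had signals of 24.0, 25.0 and 23.0 at 0, 1 and 2 h. Its cytosolic relative Bcat1 had 3 probe sets, none of which exceeded 39.8. Neither transaminase was therefore read, and log2 ratios at such signals are not interpreted.

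The dehydrogenase complex is built from E1α (Bckdha), E1β (Bckdhb), the E2 core that carries lipoate (Dbt) and the E3 subunit (Dld), which it shares with other complexes. The log2 ratios of these subunit genes at 2 h ran from -0.48 to 0.22. Dbt, read from 1449118_at, had signals of 999.1, 855.3 and 716.8 at 0, 1 and 2 h. It was lower in each hour, with log2 ratios of -0.22 at 1 h and -0.48 at 2 h, or 0.717-fold, and of -0.25 for 2 h over 1 h. The spread of genes of like signal was 0.13 at 1 h and 0.18 at 2 h, so Dbt was beyond it at 2 h and at 1 h. At 1 h this depends on the scaling, since the log2 ratio was -0.13, at the edge of the spread, with the arrays at the same median signal.

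Bckdhb (1427153_at) had signals of 820.8, 792.3 and 736.8, with log2 ratios of -0.05 and -0.16, both inside the spread. Bckdha (1416647_at) had 324.5, 321.5 and 326.3, with log2 ratios of -0.01 and 0.01. Dld had 911.0, 935.4 and 1059.7, with log2 ratios of 0.04 and 0.22. At 2 h the E2 gene thus lay below 0 h, the E1α gene was level with it, and the E3 gene lay above it. Whether the subunits differ in response could not be tested with 1 array per time.

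The regulators of the complex are a kinase, Bckdk, which switches it off by phosphorylating E1α, and a phosphatase, Ppm1k, which switches it on. Bckdk had signals of 344.7, 334.3 and 278.9 at 0, 1 and 2 h, and Ppm1k had 163.1, 158.9 and 136.3. Both were near 0 h at 1 h, at log2 ratios of -0.04 each. At 2 h both were lower, by log2 ratios of -0.31 for Bckdk and -0.26 for Ppm1k. Bckdk was a little beyond its spread of 0.27, and Ppm1k was inside its own of 0.26, at the edge. Each had another probe set below 100. That of Bckdk had log2 ratios of 0.10 at 1 h and 0.03 at 2 h, and that of Ppm1k had -0.17 and -0.19.

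In the leucine branch, isovaleryl-CoA dehydrogenase (Ivd) acts on the product of the complex, and methylcrotonyl-CoA carboxylase then adds carbon dioxide with its biotin-carrying α subunit (Mccc1) and its β subunit (Mccc2). Ivd was read from 1449001_at, with signals of 274.5, 246.2 and 184.7 at 0, 1 and 2 h. Relative to 0 h its log2 ratios were -0.16 at 1 h and -0.57 at 2 h (0.673-fold), and 2 h over 1 h gave -0.41. Most of this difference appeared in the second hour.

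The other probe set of Ivd, 1418238_at, did not share that step. Its signals were 199.5, 180.3 and 180.7, with log2 ratios of -0.15 at 1 h and -0.14 at 2 h. Both probe sets carry the same gene identifier in the array annotation. The low ratio of Ivd at 2 h thus rests on 1 of its probe sets.

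Mccc2 was lower on each of its 3 probe sets at both times. The probe set read, 1454840_at, had signals of 360.3, 282.7 and 293.7, with log2 ratios of -0.35 at 1 h and -0.29 at 2 h. The next, 1432472_a_at, had 202.3, 166.9 and 148.1, with log2 ratios of -0.28 and -0.45. The probe sets differ in when the lowest signal came, at 1 h on the brighter and at 2 h on the dimmer. The last, 1428021_at, was below 100, at 43.0, 37.1 and 36.3.

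Mccc1, the partner subunit, had signals of 464.3, 448.1 and 395.9 on 1417227_at. The log2 ratios to 0 h were -0.05 at 1 h and -0.23 at 2 h, the last at the edge of the spread of 0.23. A further probe set below 100, 1458208_s_at, had 37.6, 28.3 and 22.1, also with its lowest signal at 2 h. The 2 subunit genes of this carboxylase were thus both below 0 h at 2 h, and at 1 h Mccc2 was beyond the spread and Mccc1 inside it. Auh, a hydratase of a later step, had log2 ratios of -0.17 and -0.15.

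**Figure D2:**
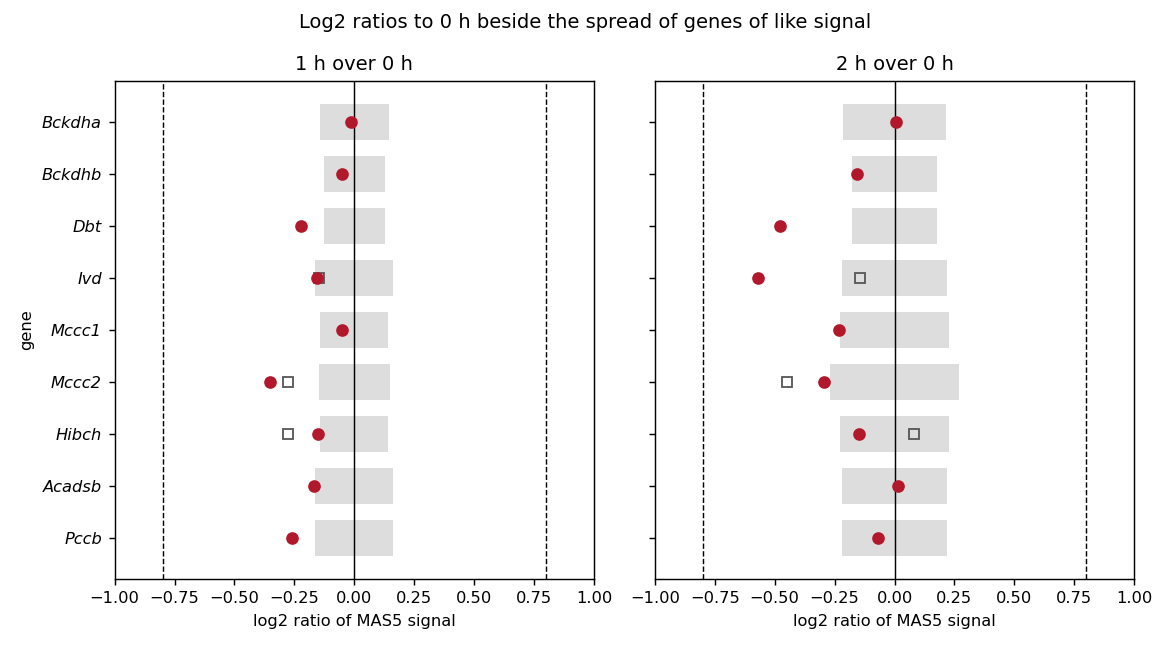
Log2 ratio of MAS5 signal (horizontal axes) at 1 h and at 2 h over 0 h for the 9 genes read. Red points are the probe set read, open squares other probe sets at 100 or more, grey bars plus and minus the robust spread of genes of like signal, and dashed lines the call size of 0.8. No point reaches the dashed lines, and at 2 h the points of Ivd (-0.57) and Dbt (-0.48) lie farthest from 0.

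In the valine branch Hibch, which removes CoA from 3-hydroxyisobutyryl-CoA, had signals of 530.1, 476.9 and 478.9 on 1451512_s_at. Its log2 ratio was -0.15 at both times. The dimmer probe set, 1451511_at, had 112.4, 92.8 and 118.9, with log2 ratios of -0.28 at 1 h and 0.08 at 2 h. The probe sets of Hibch had the same direction at 1 h and opposite ones at 2 h.

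Acad8, the dehydrogenase that acts before it, was lower at both times, with signals of 145.7, 114.4 and 106.9 and log2 ratios of -0.35 and -0.45. Its other probe set, below 100, had log2 ratios of -0.33 and -0.45. Echs1, Hibadh and Aldh6a1, the other genes of the branch, had log2 ratios from -0.10 to -0.05 at 1 h and from -0.13 to 0.07 at 2 h.

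In the isoleucine branch Acadsb, the dehydrogenase of short branched-chain acyl-CoA, had signals of 241.3, 214.8 and 243.7 on its single probe set, 1455446_x_at. It was lower at 1 h, by a log2 ratio of -0.17, and back at the level of 0 h at 2 h (0.01). The x in the name of this probe set marks probes that may bind other transcripts as well. Hsd17b10, the next dehydrogenase, had log2 ratios of -0.17 and -0.30 on the probe set read and of -0.04 and 0.00 on its other one.

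Isoleucine and valine end in propionyl-CoA, which a carboxylase of α subunits (Pcca) and β subunits (Pccb) converts to methylmalonyl-CoA. Pccb, on 1450969_at, had signals of 257.5, 215.3 and 245.6 at 0, 1 and 2 h. The log2 ratios to 0 h were -0.26 at 1 h and -0.07 at 2 h, and 2 h over 1 h gave 0.19. Pcca had signals of 849.6, 685.1 and 750.6, with log2 ratios of -0.31 and -0.18. Both subunit genes had their lowest signal at 1 h and a higher one at 2 h. For 2 h over 1 h Pcca had 0.13, inside its spread of 0.14, and Pccb was at the edge of its own spread of 0.19.

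The methylmalonyl-CoA mutase gene Mmut, the last of this route, had its lowest signal at 2 h, with signals of 776.6, 655.9 and 597.7 and log2 ratios of -0.24 and -0.38. Its second probe set above 100 had log2 ratios of -0.13 and -0.23. Mcee, the epimerase, had -0.23 and -0.26, and Mmaa had 0.02 and -0.14. Mmab, which prepares the cobalamin cofactor, was below 100 on all of its 4 probe sets.

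Over the second hour the members went in different directions as deposited. For 2 h over 1 h the median log2 ratio was 0.01, with 4 members lower and 5 higher, against 59.3% lower over all genes. With the arrays at the same median signal 7 of 9 members were lower, with a median of -0.07, against 74.3% of all genes. Ivd (-0.41), Dbt (-0.25) and Mccc1 (-0.18) were lower by more than the spread of their signal classes, as were 21.8% of all genes. These became 4, with Bckdhb added, against 38.5% of all genes with the arrays at the same median signal. Mccc1 was at the edge of its spread of 0.18, and the other probe set of Ivd was at 0.00. On the other side Pccb (0.19) was at the edge of its spread of 0.19, and Acadsb (0.18) was inside it.

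Beyond the 10 genes, a list of 16 other enzymes and regulators of the same pathway was read for 14. None of them reached a log2 ratio of 0.8 at either time. At 1 h 11 of the 14 were below 0 h, with a median of -0.09, and at 2 h 12 of the 14 were, with a median of -0.17, against 55.6% and 61.4% of all genes. The count at 1 h depends on the scaling. Bckdk (0.05) and Ppm1k (0.06) were above 0 h at 1 h with the arrays at the same median signal. Acad8 (-0.25), Pcca (-0.21), Mmut (-0.14) and Hsd17b10 (-0.07) stayed below it. The count over the whole list was not repeated in that setting. Lower by 0.3 or more were Acad8 and Pcca at 1 h, and Acad8, Mmut, Bckdk and Hsd17b10 at 2 h, that is 2 and 4 of the 14, against 7.44% and 16.3% of all genes.

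Genes that supply the pathway are listed next. Slc3a2, the heavy chain of the large neutral amino acid transporter, was higher, with signals of 733.2, 1186.9 and 1134.7 and log2 ratios of 0.69 at 1 h and 0.63 at 2 h. Its light chain Slc7a5 had log2 ratios of 0.02 and -0.17, and Slc25a44, the mitochondrial carrier of branched-chain amino acids, had -0.06 and -0.13. A dimmer probe set of Slc25a44 at 100 or more had 0.11 and -0.10. The carriers Slc43a1 and Slc7a8 stayed below 100. Of these genes Slc3a2 alone was past 0.3, and it stayed below the call size.

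Cofactors of the pathway are lipoate, carried by Dbt, and biotin, carried by Mccc1 and Pcca. Lipt2, a transferase of lipoate synthesis, had signals of 117.8, 79.6 and 62.8, with log2 ratios of -0.57 and -0.91, and was the 1 gene of these pathway lists past the call size at 2 h. That call ends in other treatments of low signals, at -0.24 when values under 100 are raised to 100 and at -0.66 when 32 is added throughout. Lias, the lipoate synthase, had -0.04 at 2 h and Btd, which recycles biotin, had 0.01, while Lipt1 and the biotin ligase gene Hlcs stayed below 100. Etfa, Etfb and Etfdh, which take the electrons from Ivd, Acad8 and Acadsb, had log2 ratios from -0.08 to -0.01 over both times.

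Klf15, a transcription factor known to activate genes of branched-chain amino acid breakdown in mouse muscle and liver, had signals of 183.4, 136.5 and 128.9 at 0, 1 and 2 h. Its log2 ratios were -0.43 at 1 h and -0.51 at 2 h, below the call size. Klf15 was lower at both times, as were 7 of the 9 members, against 45.2% of all genes. This count of members depends on the scaling. With the arrays at the same median signal Bckdhb and Mccc1, each at 0.05, were above 0 h at 1 h. Klf15 was at -0.33 and -0.49 there. The share of all genes lower at both times was not repeated in that setting. With 3 arrays no relation between Klf15 and the members was tested.

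Neighbouring mitochondrial routes were read for comparison. Apart from Dld, the 4 genes of the pyruvate dehydrogenase complex had medians of 0.08 (1 h) and 0.04 (2 h) on the log2 scale. The fatty acid oxidation genes, of which 10 were read, had medians of -0.04 and -0.14, and the 13 citrate cycle genes had -0.01 and -0.08. On the probe sets read none of these genes was past 0.8, and past 0.3 there was Acads alone, at -0.30 at 1 h. Dimmer probe sets at 100 or more were lower for Idh3a (-0.45 at 1 h and -0.73 at 2 h on 1422501_s_at, -0.39 at 2 h on 1422500_at), Decr1 (-0.35 and -0.43) and Pdha1 (-0.40 at 2 h). The members' median at 1 h (-0.16) lay below the medians of these lists, and at 2 h it was near that of fatty acid oxidation. Differences between the lists were not tested, since genes are not replicates.

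**Figure D3:**
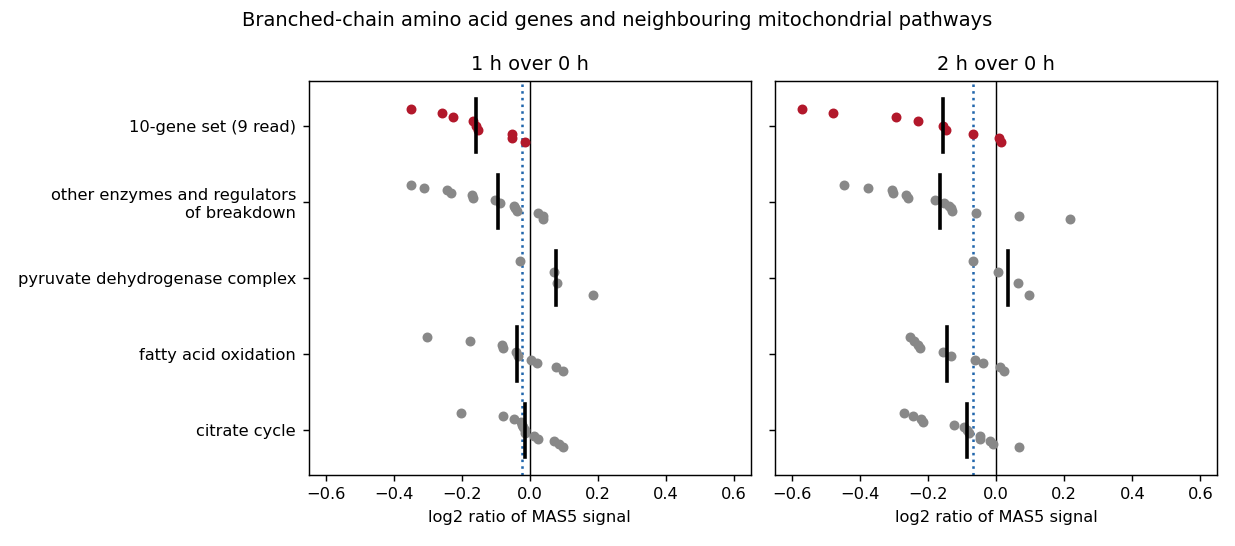
Log2 ratio of MAS5 signal (horizontal axes) at 1 h and at 2 h over 0 h, 1 point per gene, for the branched-chain amino acid genes (red) and other lists (grey). Black bars are list medians and the blue dotted line is the median of all genes read; the red median is -0.16 at both times, and that of all genes is -0.02 at 1 h and -0.07 at 2 h.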

How the data were processed

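Per the labels and methods, the authors hybridized total RNA of iBATs at 0, 1 and 2 h of ISO to Affymetrix mouse genome arrays, 1 per time point, and computed signals with MAS5. They deposited 1 linear intensity per probe set and array, for 45101 probe sets, with a trimmed mean near 100 on each array (2% cut from each end). The exclusion of absent and low transcripts named in the methods is not applied in the deposited intensity values, and all 3 columns were used. The number of arrays limits the precision.

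Probe sets were named through the archive's platform annotation: 34958 carried a single symbol. The 932 with several symbols and the 9211 that the annotation does not list were left out. Gene names were matched by symbol to RefSeq promoter windows (GRCm38.p6). A gene was read from its probe set with the highest mean signal among those at 100 or more on 1 or more arrays, which gave 6896 genes. Signals under 0.1 were set to 0.1 before log2. A call was a log2 ratio of at least 0.8 in either direction, a size the study uses for induction at 1 h, and 0.3 was a smaller size given beside it. The spread was a scaled median absolute deviation (factor 1.4826) of log2 ratios, taken in 20 classes of mean signal. Named genes were all members with every probe set, and of the other lists those past 0.3 or without a probe set at 100, with Bckdk, Ppm1k and Klf15 in any case. A few further pathway genes were named to complete a branch after their values were seen, as were the 4 promoters shown. The members and lists were chosen with earlier results of these data known. The calculation of ratios and calls was tested on simulated data, with planted ratios beyond the call size in bright genes. Smaller ratios and counts past the spread were not simulated. Python 3.11.15, numpy 2.4.6, pandas 2.3.3 and matplotlib 3.10.9 were used. The 10 alternatives tried were other filters, treatments of low signals, scalings, choices of probe set and a smaller call size, and 1 more, the dimmest kept probe set, was added after seeing the data.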

Additional observations from a re-analysis of the deposited data

How the results depend on the processing

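The counts of members called were 0 at 1 h and 0 at 2 h. They were also 0 under every filter, treatment of low signals, scaling and choice of probe set tried. The filters, and raising values under 100 to 100, could not change the ratios of the 9 genes read, whose signals were high enough. For the 6 of them with 1 kept probe set, neither could the median or the dimmest probe set. With a call size of 0.3, in the scaling as deposited, the counts became 1 at 1 h and 2 at 2 h. The members' median log2 ratio ranged from -0.19 to -0.06 at 1 h, from -0.19 to -0.13 at 2 h and from -0.07 to 0.01 for 2 h over 1 h. The number of members below 0 h was 6 to 9 at 1 h and 6 to 8 at 2 h. The number of members read was not the same throughout. Without a filter Bcat2 is read as a 10th member, and 8 of 10 were below 0 h at 2 h. Acadsb is not read when probe sets with suffixes for shared sequence are left out. In that setting 8 of 8 were below 0 h at 1 h and 6 of 8 at 2 h. The choice of probe set moved Ivd and Hibch at 2 h by more than the spread of their signal classes, and Mccc2 by less. On the dimmest kept probe set, an alternative chosen after seeing the data, Ivd was at -0.14, Hibch at 0.08 and Mccc2 at -0.45. Hsd17b10, outside the 10 genes, moved there from -0.30 to 0.00. Hibch was at 0.08 also when probe sets with suffixes for shared sequence were left out, and Mccc2 was at -0.37 with the median over kept probe sets. Dbt stayed between -0.52 and -0.46 at 2 h under all alternatives. It has a single probe set, brighter than the filters, so only scaling and added signal could move it. Its ratio was therefore not checked on a second probe set. No paired analysis was possible because each time point has 1 array. Small ratios at these signals are limited by the lack of replicate arrays.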
